A study of Mus musculus with 10 samples.

Results

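The genes described here are 7 that are known from the stomach and from Brunner glands, the mucous glands of the first part of the duodenum: Tff1, Tff2, Gkn3, Muc6, Pgc, Atp4a and Vsig1. They were chosen by symbol, and because their levels were known to separate libraries of the same genotype. All 7 were found among the 20579 genes with counts, and all 7 passed the filter on low counts that left 16710 genes for the comparison of genotypes. Because the levels themselves led to the choice, fitted differences of these 7 genes are given as descriptions, with limits but without tests.

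RNA was sequenced from cells that carried green fluorescent protein driven by Hopx, a homeobox gene used as a marker of reserve intestinal stem cells, and that were sorted from mouse embryos at E18.5 on a mixed C57BL6/J and 129S4 background. There were 5 libraries of genotype p57KO, which lacks p57, the cyclin-dependent kinase inhibitor encoded by Cdkn1c, and 5 of genotype p57WT. The tissue was labelled intestine, without the segment it came from. Each count column also carried a number that the labels do not explain: 607 for p57KO 1, p57KO 2 and p57WT 1, 608 for p57KO 3, p57KO 4 and p57KO 5, and 740 for p57WT 2, p57WT 3, p57WT 4 and p57WT 5. Only 607 held both genotypes. The design names 5 intestines per genotype, and a library was read as 1 intestine, although litters and animals were not identified.

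Libraries held 8037887 to 26809231 counts. Levels are given as CPM (the count as a share of the library, per 1000000 counts) after scaling of the libraries by the trimmed mean of M values (TMM), and 3 counts corresponded to 0.105 to 0.392 CPM. The mean level of Cdkn1c was 0.840 ± 0.764 CPM for p57KO and 230.4 ± 129 CPM for p57WT (SD, n = 5 each), a log2 difference of -8.21 (edgeR, adjusted p = 9.99e-05). Hopx was found in every library, at 60.4 to 199 CPM. Its mean was 151 ± 30.6 CPM for p57KO and 71.3 ± 6.73 CPM for p57WT (SD, n = 5 each). The log2 difference was 1.08 (edgeR, adjusted p = 0.00191), and all p57KO libraries lay above all p57WT libraries. Summed over 8 smooth muscle genes the level was 5577 to 38180 CPM in p57KO and 55560 to 114500 CPM in p57WT, so RNA of smooth muscle genes was present in the sorted material. Summed over 12 epithelial genes it was 8873 to 16780 CPM in p57KO and 2977 to 7162 CPM in p57WT. In such bulk samples fewer cells of a type and less RNA per cell cannot be told apart.

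Stomach glands are lined by cells of several kinds. Surface and pit cells secrete trefoil factor 1, neck and gland mucous cells secrete the mucin Muc6 together with trefoil factor 2, chief cells store pepsinogens, and parietal cells pump acid through an H+/K+ ATPase. Brunner glands share the Muc6 and Tff2 secretion of the gastric glands, while the rest of the intestinal epithelium makes the goblet cell products Muc2 and Tff3 instead.

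The gland mucin Muc6 and its partner Tff2 were abundant in some libraries of each genotype and nearly undetected in others. Tff2, which encodes a secreted trefoil peptide that stabilises mucus, reached 260.1 and 82.1 CPM in p57KO 1 and 2, but only 0.84, 0.27 and 0.61 CPM in p57KO 3, 4 and 5. Among the p57WT libraries it was at 135, 285, 178 and 112 CPM in libraries 1, 3, 4 and 5, whereas p57WT 2 had 0 counts; the 3 counts taken as the limit of a 0 would be 0.119 CPM there, and the exact 2-sided 95% limit drawn in the plot is 0.146 CPM. The same 4 libraries, p57KO 3, 4 and 5 and p57WT 2, thus lay at under 1 CPM of Tff2 and the other 6 at 82.1 CPM or more. Muc6, the gel-forming mucin of the glands, read 148, 29.3, 0.46, 0.38 and 1.2 CPM across p57KO 1 to 5. The p57WT libraries 1 to 5 had 140.1, 0.83, 375, 244 and 130.1 CPM of Muc6. High and low libraries of Muc6 were those of Tff2, and the ranges of the 2 genotypes overlapped, with p57WT 3 and 4 above every p57KO library.

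Gkn3, a secreted gastrokine known from mucous neck cells of the mouse stomach, separated the libraries in the same way. Its level was 146, 90.4, 0.04, 0.84 and 1.04 CPM across p57KO 1 to 5. Across p57WT 1 to 5 it was 53.5, 1.42, 98.5, 45.5 and 55.1 CPM. Unlike Tff2 and Muc6, its highest level was in a p57KO library. Pgc, which encodes the zymogen pepsinogen C of chief and gland mucous cells, was less abundant, with 13.9, 8.77, 0.77, 0.81 and 0.70 CPM across p57KO 1 to 5. The p57WT series 1 to 5 read 8.20, 0.08, 19.0, 8.37 and 5.81 CPM. Tff1, the trefoil factor of pit cells, rested on 209 counts in all. Its level was 4.90, 2.46, 0, 0 and 0.09 CPM across p57KO 1 to 5 and 2.39, 0, 3.15, 5.36 and 0.59 CPM across p57WT 1 to 5. Its level in p57WT 5 came from 5 counts, and its counting interval overlapped that of p57KO 5, so for Tff1 the high and the low libraries were not fully apart at this depth.

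The acid pump and the adhesion gene did not share the division. Atp4a, the catalytic subunit of the parietal cell proton pump, had 1.72, 1.86, 1.30, 1.69 and 2.44 CPM across p57KO 1 to 5. Across p57WT 1 to 5 Atp4a had 1.25, 0.24, 2.78, 0 and 0.47 CPM, and when all 10 libraries were ordered by level, the 95% counting intervals of each library and the next overlapped. Libraries further apart in that order did differ beyond counting error. The upper limits of p57WT 2 and 4, 0.516 and 0.483 CPM, lay below the lower limits of all p57KO libraries, the lowest being 0.912 CPM in p57KO 3. Within p57KO all the intervals of Atp4a overlapped. Vsig1, an immunoglobulin-family adhesion protein of gastric epithelium, was at 23.2 and 17.1 CPM in p57KO 1 and 2 and at 2.00, 4.45 and 2.18 CPM in p57KO 3, 4 and 5. For Vsig1 the p57WT libraries 1 to 5 read 2.50, 0.63, 6.41, 3.66 and 0.47 CPM. It stood highest in the same p57KO libraries as the mucous genes, but p57WT 5, which had 112 CPM of Tff2, had the lowest Vsig1 of all. Counting intervals cover counting error only.

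**Figure D1:**
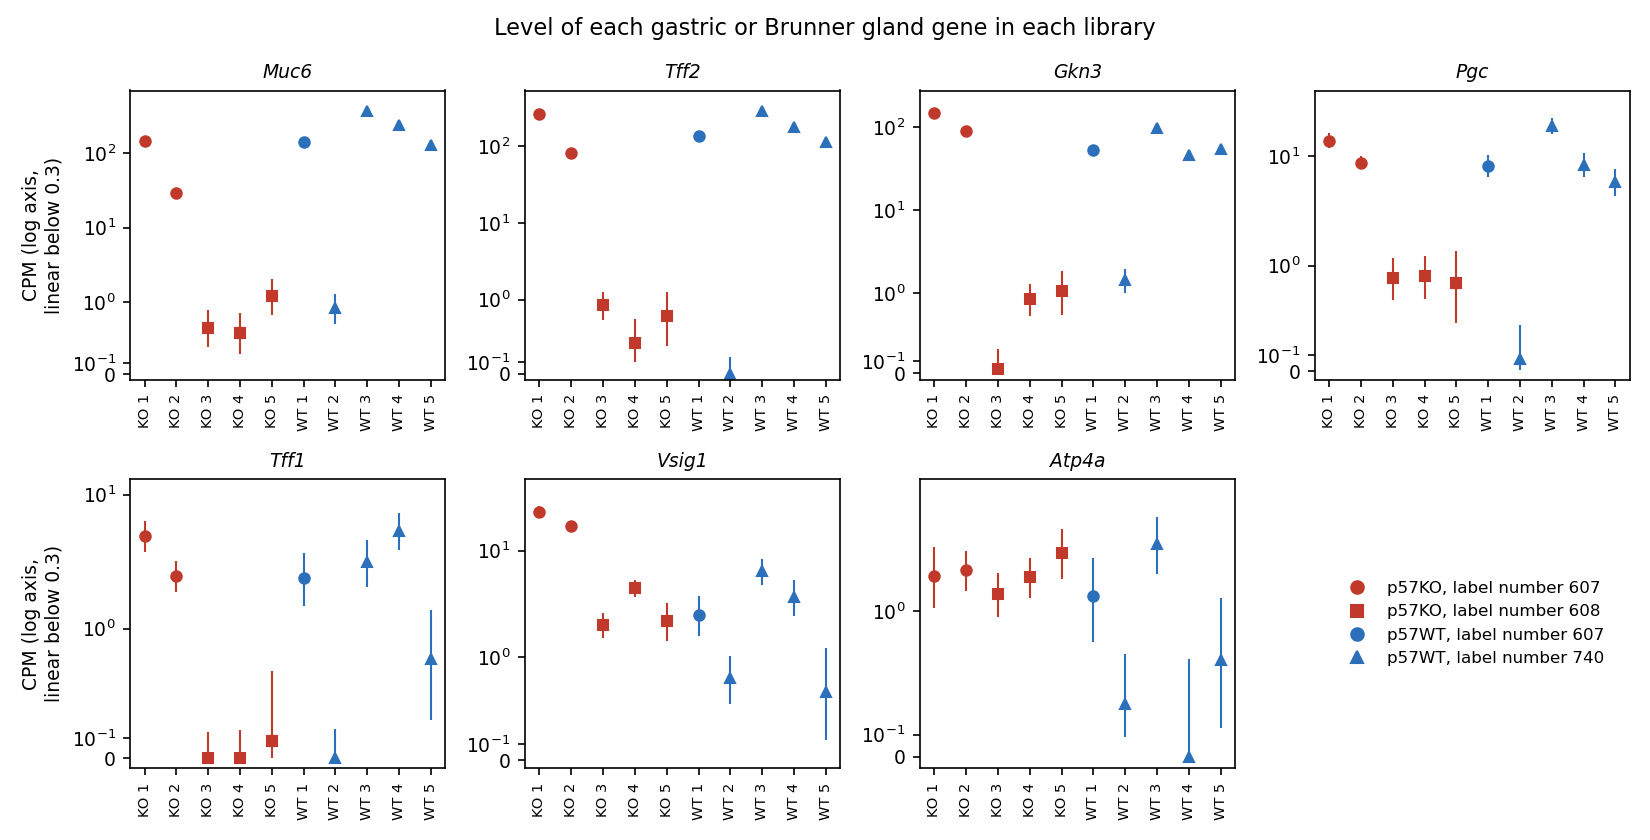
Level of the 7 genes in the 10 libraries, in CPM on an axis that is logarithmic above 0.3 and linear below. Points are single libraries with exact 95% counting intervals, red for p57KO and blue for p57WT, with the shape giving the label number. Muc6, Tff2, Gkn3 and Pgc are low in p57KO 3, 4 and 5 and in p57WT 2, while Atp4a stays between 0 and 2.78 CPM with no such division.

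Levels of different genes were compared per kilobase of the summed exons. In p57WT 3, which had the highest Tff2 and Muc6, Tff2 was at 488 CPM per kilobase, Gkn3 at 115, Muc6 at 40.1 and Pgc at 13.7. Tff1 was at 4.48, Vsig1 at 2.32 and Atp4a at 0.74 CPM per kilobase in the same library. In p57KO 1 the first places were the same, with 445 CPM per kilobase for Tff2, 171 for Gkn3, 15.8 for Muc6 and 10.04 for Pgc, but Vsig1 at 8.39 stood above Tff1 at 6.97. Tff2 and Gkn3 were thus the highest of the 7 per unit of length, and Atp4a the lowest, in both libraries.

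Between the genotypes the 95% limits of the difference spanned 0 for 6 of the 7 genes. The log2 difference of p57KO over p57WT was -2.32 for Muc6 (SE 1.46, 95% limits -5.45 to 0.82), with means of 35.8 ± 63.7 CPM and 178 ± 140 CPM respectively (SD, n = 5 each). For Tff2 it was -1.05 (SE 1.57), with 68.8 ± 113 CPM and 142 ± 103 CPM. Gkn3 differed by -0.09 (SE 1.36), Pgc by -0.73 (SE 1.02), Tff1 by -0.63 (SE 1.35) and Atp4a by 0.95 (SE 0.74). For Vsig1 the value was 1.86 (SE 0.82, 95% limits 0.08 to 3.63, not adjusted for the number of genes). So 5 genes lay below 0 and 2 above, with a median of -0.63 against 0.0795 over all genes tested. In none of the 7 were all libraries of one genotype above all of the other, a state that 11.5% of all tested genes reached with p57KO higher and 12.7% with p57KO lower. In the authors' deposited table the log2 differences were -2.38 for Muc6, -1.11 for Tff2 and 1.83 for Vsig1.

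Which p57KO libraries were included decided these values. Without p57KO 1 and p57KO 2, a choice made after seeing the data, the log2 difference was -8.12 for Muc6, -7.89 for Tff2, -6.49 for Tff1, -6.38 for Gkn3 and -3.37 for Pgc. For Vsig1 it was 0.16 and for Atp4a 0.99. Without p57KO 1 alone it was -4.48 for Muc6, -2.74 for Tff2, -1.77 for Tff1, -1.12 for Gkn3 and -1.55 for Pgc. With limma voom it was -4.31 for Muc6, -1.93 for Tff2, -1.45 for Tff1, -3.07 for Gkn3 and -0.13 for Pgc. With the label number as a term the values of Tff1, Tff2, Gkn3 and Pgc turned positive, at 0.61, 0.34, 1.14 and 0.47, and that of Muc6 was -0.67. Only 607 held both genotypes, so the genotype differences of that fit rest on p57KO 1 and 2 against p57WT 1. Only effect sizes are read from it. Scaling to the epithelial counts, which moved the median of all genes to -1.45, gave -0.45 for Atp4a and 0.20 for Vsig1, and it left Muc6 at -4.12 and Tff2 at -2.86.

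Within p57KO the division of the mucous genes followed the label number. The 2 libraries of number 607 and the 3 of number 608 were therefore compared in a further edgeR fit over the 5 p57KO libraries, also added after seeing the data, in which 692 of 19638 genes (3.52%) passed an adjusted p of 0.05. The comparison was taken up because the mucous genes followed it. Adjusted p values from this fit are therefore descriptions of the division, here and below, and not independent tests. The log2 difference of 607 over 608 was 8.12 for Tff2 (SE 0.69, 95% limits 6.60 to 9.65), 7.54 for Gkn3 (SE 0.86), 7.25 for Tff1 (SE 1.15) and 7.03 for Muc6 (SE 0.78). It was smaller for Pgc, at 3.80 (SE 0.53), and for Vsig1, at 2.71 (SE 0.51). Atp4a differed by -0.07 (SE 0.63, 95% limits -1.47 to 1.33). Both 607 libraries lay above all 608 libraries in 6 of the 7 genes, against 18.4% of all genes tested, and nothing is read from this count because the genes were chosen for their division. As pooled counts, Tff2 had 4963 in 607 and 38 in 608, a scaled ratio of 245 (95% counting limits 178 to 347). Tff1 had 115 and 1, a ratio of 216 with limits of 38.0 to 8596.

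The label number did not separate the p57WT libraries in the same way. Within 740, p57WT 3, 4 and 5 had 112 to 285 CPM of Tff2 while p57WT 2 had none. Within 607, where both genotypes were present, pooled Tff2 was 1.05 times as high in p57KO as in p57WT 1 (95% counting limits 0.981 to 1.11). Muc6 was 0.488 times as high there (limits 0.455 to 0.523), Gkn3 2.03 times (limits 1.85 to 2.24) and Vsig1 7.64 times (limits 5.00 to 12.3). These limits cover counting error only and p57WT had a single library with this number, so the genotypes were not tested within it. The p57KO libraries themselves, with 148 and 29.3 CPM of Muc6, lay on either side of the 140.1 CPM of p57WT 1.

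**Figure D2:**
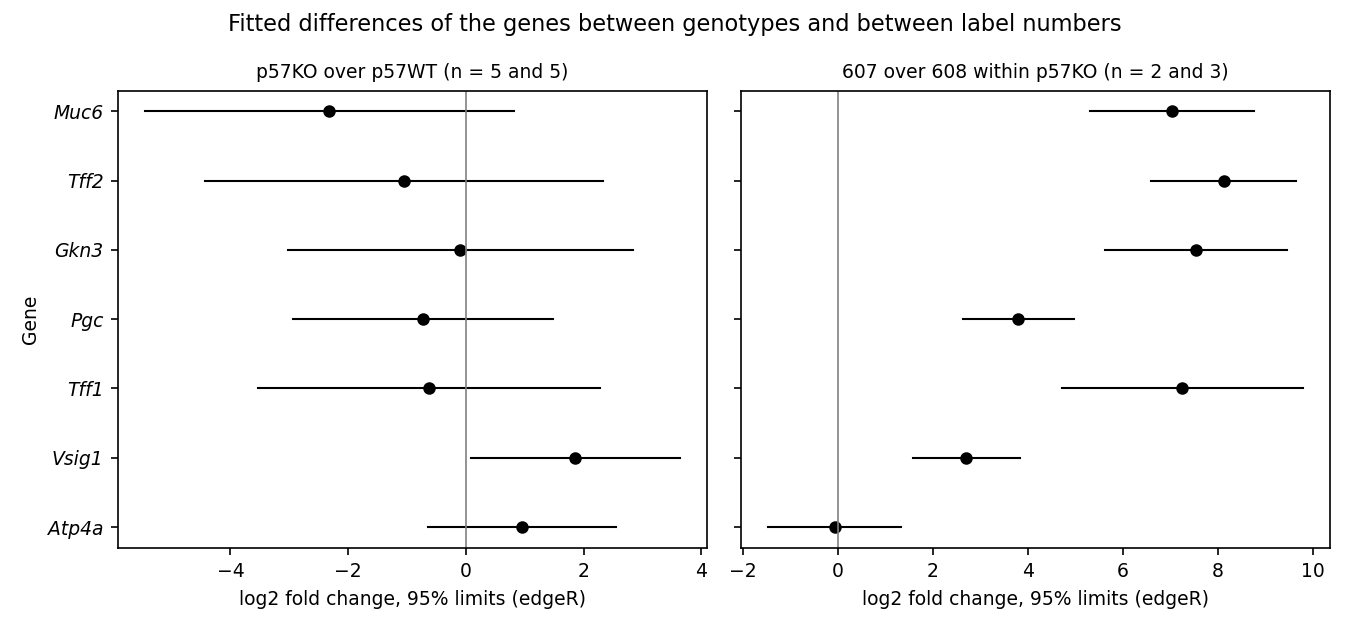
Fitted log2 differences of the 7 genes with 95% limits (edgeR), for p57KO over p57WT on the left (5 libraries each) and for label number 607 over 608 within p57KO on the right (2 and 3 libraries). On the left the limits of 6 genes span 0, and on the right Tff2 reaches 8.12 while Atp4a is at -0.07.

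The mucous genes could be set against one another where their counts were high enough. The count of Tff2 per count of Muc6 was 1.76 in p57KO 1 and 2.80 in p57KO 2. It was 0.962, 0.759, 0.732 and 0.863 in p57WT 1, 3, 4 and 5, so both p57KO values lay above all of these. Gkn3 per Muc6 was 0.988 and 3.08 in p57KO 1 and 2 and 0.382, 0.263, 0.187 and 0.424 in p57WT 1, 3, 4 and 5. Pgc per Muc6 was 0.0943 and 0.299 against 0.0585, 0.0506, 0.0344 and 0.0447 in the same order. In each ratio p57KO 2 was the highest of these 6 libraries. The other 4 libraries had 10 to 21 counts of Muc6, so their ratios had wide limits, yet some differed from these values by more than counting error. Tff2 per Muc6 was 0 in p57WT 2 (upper 95% limit 0.192), and Gkn3 per Muc6 was 1.71 there (limits 0.974 to 3.09). Pgc per Muc6 was 1.69 (limits 0.816 to 3.66) in p57KO 3 and 2.1 (limits 0.947 to 4.99) in p57KO 4. Set against the 12 epithelial genes, Muc6 reached 9.36 and 1.75 counts per 1000 epithelial counts in p57KO 1 and 2 and 19.6, 84.2, 49.9 and 43.7 in p57WT 1, 3, 4 and 5. It was at 0.0280 to 0.137 in p57KO 3, 4 and 5 and at 0.188 in p57WT 2, so the division remained on this scale.

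The intestinal counterparts next to these genes did not share the division. On chromosome 17 (GRCm38, GENCODE M21) Tff2 lies at chr17:31141049-31144282 and Tff1 at chr17:31161395-31165277, both on the minus strand, and Tff3 ends 11403 bases from Tff2. Tff3, the goblet cell trefoil factor, was at 1963 to 3417 CPM in all p57KO libraries and at 360 to 827 CPM in all p57WT libraries, a log2 difference of 2.35 (edgeR, adjusted p = 0.000428). With scaling to epithelial counts that difference was 0.85 (adjusted p = 0.0454), and with the label number as a term it did not pass (1.70, adjusted p = 0.088). In 607 over 608 Tff3 differed by -0.05 (SE 0.52, adjusted p = 0.974), beside the 8.12 of Tff2. Tff1 overlaps Gm15318, annotated as antisense on the other strand, and the strand setting of the counting is not stated in these sources.

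Muc6 lies at chr7:141633456-141655319 on the minus strand, 35021 bases from Muc2 and 445 bases from Ap2a2. Muc2, the gel-forming mucin of goblet cells, was at 92.9 to 299 CPM in p57KO and at 56.1 to 157 CPM in p57WT, with a log2 difference of 0.87 (edgeR, adjusted p = 0.0627). It passed with DESeq2 (adjusted p = 0.0391), with the replicate number as a block (0.0156) and without p57KO 4 (0.0337) or p57WT 1 (0.0335), and turned to -0.58 (adjusted p = 0.217) with scaling to epithelial counts. Muc6 counts per Muc2 count were 0.494 and 0.208 in p57KO 1 and 2 and 0.893, 3.79, 4.34 and 1.23 in p57WT 1, 3, 4 and 5. The ratio was 0.0105 in p57WT 2 and 0.00323 to 0.00516 in p57KO 3, 4 and 5. Ap2a2, an adaptor subunit of endocytosis, was at 74.4 to 258 CPM in every library. The other genes lie apart: Gkn3 at chr6:87383256-87388935 (minus strand), Pgc at chr17:47726842-47734482 (plus), Atp4a at chr7:30712209-30725534 (plus) and Vsig1 at chrX:140907608-140939472 (plus). Gkn1 and Gkn2, neighbours of Gkn3, were not analysed here.

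Promoter sequences of 5 of the 7 genes were matched in RefSeq (GRCm38.p6), and 4 are shown to set the 3 that divided the libraries alike (Muc6, Gkn3 and Pgc) beside the one that did not (Atp4a). Each covers the 250 bases before the start given by RefSeq, which for Muc6 lies upstream of the GENCODE gene end given above, 5′ to 3′ on the gene's strand. Capitals mark GATAA, a core bound by GATA factors of the foregut and midgut, and TATAA, the core of the TATA box, each on either strand; TTATAA holds the latter on both strands.
Muc6 (chr7:141655394-141655643, minus strand): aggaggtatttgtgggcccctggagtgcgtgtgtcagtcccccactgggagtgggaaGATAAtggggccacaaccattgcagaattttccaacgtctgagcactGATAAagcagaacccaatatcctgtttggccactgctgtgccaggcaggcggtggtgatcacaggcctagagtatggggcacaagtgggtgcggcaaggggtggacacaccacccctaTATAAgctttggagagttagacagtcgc
Gkn3 (chr6:87388936-87389185, minus strand): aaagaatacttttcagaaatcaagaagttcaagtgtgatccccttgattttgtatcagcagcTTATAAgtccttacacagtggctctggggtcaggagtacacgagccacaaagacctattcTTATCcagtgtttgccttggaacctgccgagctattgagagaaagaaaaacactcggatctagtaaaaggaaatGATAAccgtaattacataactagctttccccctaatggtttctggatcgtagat
Pgc (chr17:47726592-47726841, plus strand): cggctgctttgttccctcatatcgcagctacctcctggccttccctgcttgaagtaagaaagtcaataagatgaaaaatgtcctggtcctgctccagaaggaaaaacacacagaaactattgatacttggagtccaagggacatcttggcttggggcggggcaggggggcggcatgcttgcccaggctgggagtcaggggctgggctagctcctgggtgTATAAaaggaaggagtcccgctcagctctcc
Atp4a (chr7:30711959-30712208, plus strand): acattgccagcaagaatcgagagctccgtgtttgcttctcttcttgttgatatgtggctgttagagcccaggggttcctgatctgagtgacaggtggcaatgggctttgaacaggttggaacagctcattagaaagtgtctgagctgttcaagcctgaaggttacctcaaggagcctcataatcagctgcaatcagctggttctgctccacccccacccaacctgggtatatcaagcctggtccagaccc
GATAA was found in Muc6 and Gkn3, 2 matches each, and once in Vsig1, but not in Pgc or Atp4a, and 22.6% of 32851 promoters of this length held it. TATAA was found in Muc6 from 28 bases and in Pgc from 31 bases before the start, and in Gkn3 from 188 bases before it, against 22.8% of all promoters. These matches describe the sequence only. Gata4, which encodes a GATA factor of the stomach and proximal intestine, was at 43.5 to 48.8 CPM in all 5 p57KO libraries and at 16.5 to 45.4 CPM in p57WT (log2 0.85, edgeR adjusted p = 0.0247). It is 1 of 6 duodenal genes listed, of which 3 were called higher in p57KO, beside 19.3% of all genes. The median log2 difference of the 6 was 1.16, and 0.916 with the label number as a term. With scaling to epithelial counts 2 were higher and 1 lower, with a median of -0.329. In p57KO, Gata4 differed by -0.03 on the log2 scale in 607 over 608 (95% limits -0.81 to 0.76, adjusted p = 0.978, edgeR).

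Other stomach genes were read from lists of surface mucous, neck, chief and Brunner gland, parietal and epithelial transcription factor genes, 31 symbols in all, of which 12 were among the genes the authors listed. The gastric genes outside these 12, among them Muc5ac, Gkn1, Atp4b and Sox2, were not listed by these symbols and were not analysed here, so their levels are not known. In the comparison of genotypes, 1 of the 9 tested was higher in p57KO and 0 were lower in edgeR (2 and 0 with DESeq2, and 2 and 0 at an unadjusted p under 0.05). Of all genes tested, 36.5% were called (19.3% higher and 17.2% lower). The median of the 9 was 0.965, against 0.0795 over all genes. With scaling to epithelial counts these medians were -0.529 and -1.45. The gene called was Capn8, a calpain of gastric surface mucous cells, with means of 8.94 ± 4.48 CPM for p57KO and 4.41 ± 0.889 CPM for p57WT (SD, n = 5 each; log2 1.02, SE 0.38, adjusted p = 0.0485). Its adjusted p lay between 0.0317 and 0.101 when each library was left out in turn and missed the threshold in 7 of those 10 fits. Without p57KO 1 and 2 the difference was 0.46 (adjusted p = 0.264), and with scaling to epithelial counts it was -0.56 (adjusted p = 0.227). With voom, and with the replicate number as a block, 0 surface mucous genes were called, so Capn8 did not pass there.

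A4gnt is the glycosyltransferase that caps the glycans of the gland mucin. Across p57KO 1 to 5 it read 13.1, 5.59, 6.48, 9.82 and 8.44 CPM, and across p57WT 1 to 5 it read 3.07, 0.12, 4.11, 4.19 and 2.25 CPM. All p57KO libraries thus lay above all p57WT libraries, including p57KO 3, 4 and 5, in which Muc6 was nearly undetected. The log2 difference was 1.68 (SE 0.63) with an adjusted p of 0.0513 in edgeR and 0.0167 in DESeq2, and it was 0.20 (adjusted p = 0.781) with scaling to epithelial counts. A4gnt also passed with voom (adjusted p = 0.0151) and with the replicate number as a block (0.0304). It did not pass with the label number as a term (0.506). When each library was left out in turn, it missed the threshold in 9 of 10 fits. In 607 over 608 A4gnt differed by 0.08 (SE 0.50, adjusted p = 0.951).

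Within p57KO, 2 of 12 stomach list genes were higher in 607 than in 608 and 0 were lower in edgeR (2 and 1 with DESeq2, and 4 and 1 at an unadjusted p under 0.05), where 1.92% of all genes were called higher and 1.6% lower. Their median was 0.614, against 7.73e-05 over all genes. That median was 0.438, 0.91 and 0.611 without p57KO 1, 2 and 5. It was 0.00104 without p57KO 3 and 0.259 without p57KO 4 (11 genes tested in each). With scaling to epithelial counts it was 0.163, where all genes had a median of -0.479. Both genes called higher in edgeR were transcription factors. Nkx6-3, a homeobox gene of the antral stomach and of Brunner glands, was at 37.0 and 19.9 CPM in p57KO 1 and 2 and at 0.07, 1.27 and 0.61 CPM in p57KO 3, 4 and 5 (log2 5.35, SE 0.84, edgeR adjusted p = 0.0111). In p57WT 1 to 5 it was at 7.63, 0.24, 3.02, 6.15 and 2.61 CPM, so p57WT 2 was again the lowest. Foxq1, a forkhead factor of surface mucous cells, was at 92.1 and 42.0 CPM in p57KO 1 and 2 and at 2.45, 1.42 and 6.96 CPM in p57KO 3, 4 and 5 (log2 4.18, SE 0.65, adjusted p = 0.0107). In p57WT 1 to 5 it was at 20.3, 10.5, 19.6, 17.9 and 18.1 CPM. With scaling to epithelial counts the adjusted p was 0.041 for Nkx6-3 and 0.0649 for Foxq1. Between genotypes neither passed, with log2 differences of 1.60 (adjusted p = 0.308) and 0.74 (adjusted p = 0.515). In edgeR the parietal and chief genes gave no call: Esrrg differed by -1.79 (adjusted p = 0.0884) and Pga5 by -1.50 (adjusted p = 0.348) in 607 over 608. Esrrg, a nuclear receptor of parietal cells, was lower in 607 with DESeq2 (-1.76, adjusted p = 0.0119) and without p57KO 1 (-2.54, adjusted p = 0.0368).

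**Figure D3:**
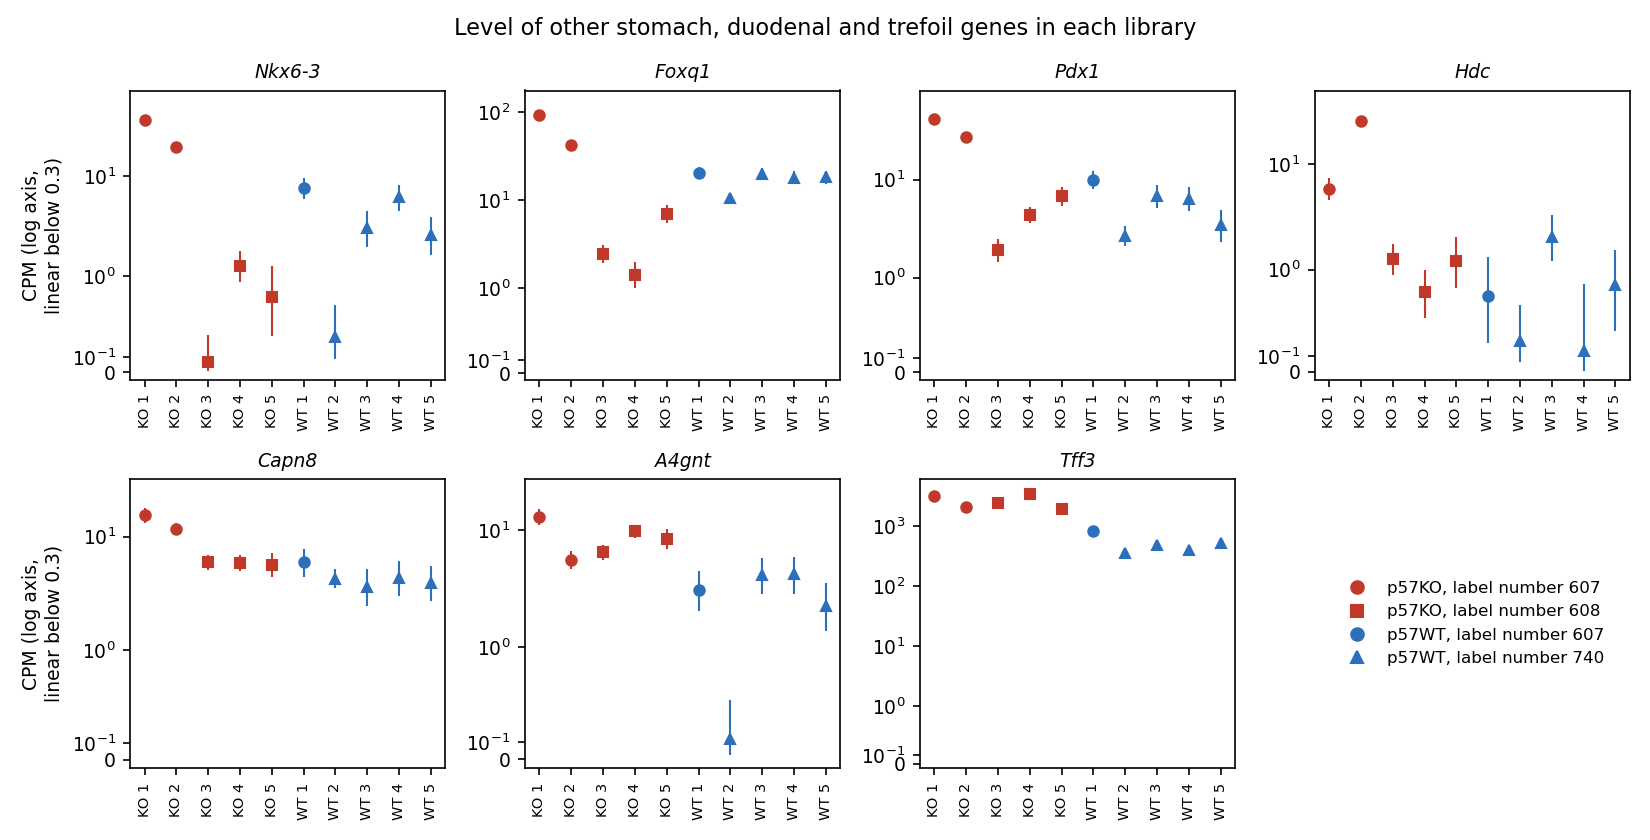
Level of 7 other genes in the 10 libraries, drawn as CPM with exact 95% counting intervals on an axis that is logarithmic above 0.3 and linear below. Colours and shapes give genotype and label number. Nkx6-3 is low in p57KO 3, 4 and 5 and in p57WT 2, as Muc6 is, whereas A4gnt and Tff3 are higher in every p57KO library than in any p57WT library.

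Single genes of the organs next to the stomach also passed the threshold in the fit of label numbers that was added after seeing the data. Of 6 duodenal genes, Pdx1, a homeobox factor of antrum, duodenum and pancreas, was higher in 607, at 41.5 and 27.2 CPM against 1.93 to 6.79 CPM in 608 (log2 2.91, SE 0.53, edgeR adjusted p = 0.0190). Its adjusted p was 0.0923 with scaling to epithelial counts and 0.0723 without p57KO 4. Osr2 of the same list was lower in 607 (log2 -2.06, adjusted p = 0.0405), and it did not pass with scaling to epithelial counts (adjusted p = 0.0504) or when p57KO 1, 3, 4 or 5 was left out. Of 6 pancreatic genes, 1 was higher: Ctrb1, which encodes a chymotrypsinogen, was at 42.7 and 129 CPM in 607 and at 2.35 to 7.49 CPM in 608 (log2 4.07, adjusted p = 0.00939). Of 4 stomach endocrine genes, Hdc, the histamine-forming enzyme of enterochromaffin-like and mast cells, was higher (log2 3.88, adjusted p = 0.0156), but not without p57KO 2 (adjusted p = 0.0567) or p57KO 4 (adjusted p = 0.0661) or with scaling to epithelial counts (adjusted p = 0.0633). Of 6 other mucin and trefoil genes, the membrane mucin Muc3 was higher (log2 2.39, adjusted p = 0.0405), and it did not pass without p57KO 1, 3 or 4 or with scaling to epithelial counts (adjusted p = 0.166). In edgeR 0 of 9 distal gut genes were called, with 2 lower at an unadjusted p under 0.05, and 1 was lower with DESeq2 or without p57KO 2.

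Markers of other cells also differed between these libraries. The summed smooth muscle level was 5577 and 8808 CPM in p57KO 1 and 2 and 26300 to 38180 CPM in p57KO 3, 4 and 5. Of the 8 genes, 4 were lower in 607 in edgeR, beside 1.6% of all genes. That count was 0 without p57KO 1 or without p57KO 4, 1 to 2 without p57KO 2, 3 or 5, 8 with DESeq2 and with voom, and 7 with scaling to epithelial counts. The median log2 difference of the 8 was -2.27, and it was -1.83 without p57KO 1 and -2.30 without p57KO 4. In p57WT 2 it was 114500 CPM, above the 55560 to 72870 CPM of the other p57WT libraries. The 4 leukocyte genes summed to 276 and 2361 CPM in p57KO 1 and 2, to 34.5 to 147 CPM in p57KO 3, 4 and 5 and to 2.42 to 49.2 CPM in p57WT, where p57WT 2 had 3.12 CPM. Of these, 2 of 4 were higher in 607 in edgeR, beside 1.92% of all genes. The count was 0 without p57KO 2, p57KO 4 or p57KO 5 or with scaling to epithelial counts. It was 3 with DESeq2, without p57KO 1 or without p57KO 3. The median log2 difference of the 4 was 3.63, and 1.40, 3.55 and 3.26 without p57KO 2, 4 and 5. Epithelial sums were 15770 and 16780 CPM in p57KO 1 and 2 against 8873 to 13690 CPM in p57KO 3, 4 and 5, with 0 of 12 genes called in edgeR (1 higher and 1 lower with DESeq2, 1 lower with scaling to epithelial counts, and 3 higher and 1 lower at an unadjusted p under 0.05). p57WT 2, at 4421 CPM, lay within the 2977 to 7162 CPM of p57WT. The part of these cells in the levels of the gastric genes was not tested. Total counts were 11711638, 25043153, 26809231, 25463840 and 10684179 in p57KO 1 to 5, 25527896 in p57WT 2 and 8037887 to 9020153 in the other p57WT libraries, and the part of depth was not tested. Features of ribosomal RNA took 0.435%, 0.0651%, 0.0592%, 0.0655% and 9.47% of the counts in p57KO 1 to 5. In p57WT 2 they took 0.0301%, against 14.9% to 17% in the other p57WT libraries.

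**Figure D4:**
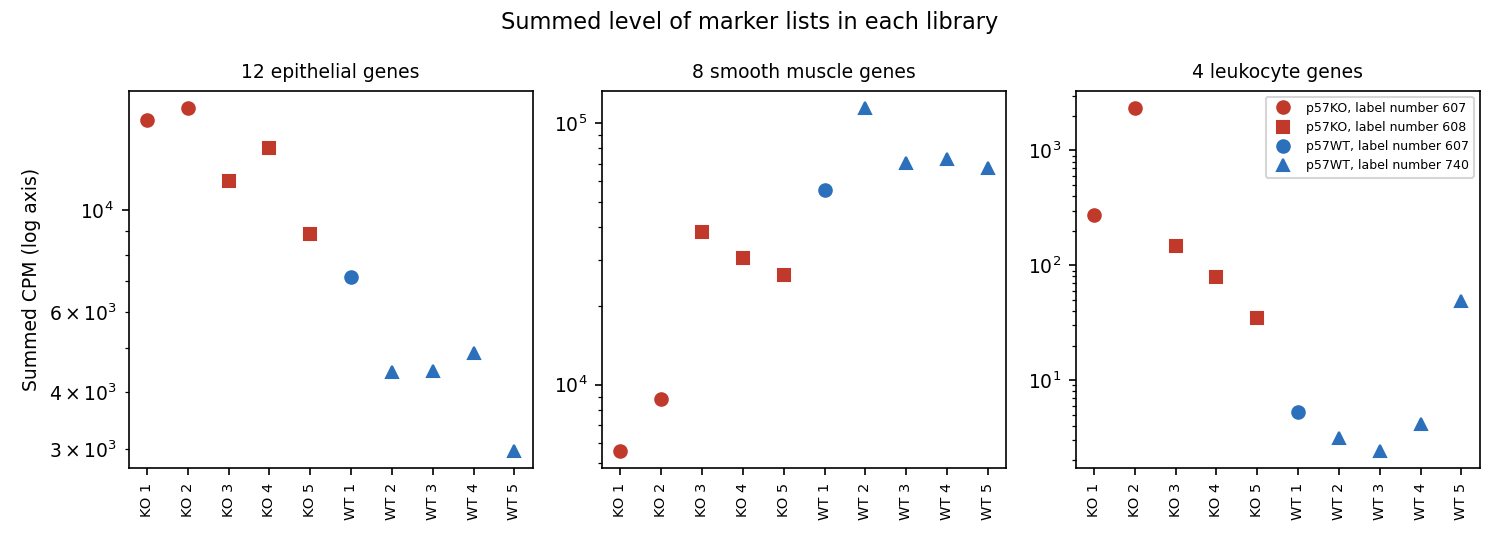
Summed CPM of 12 epithelial, 8 smooth muscle and 4 leukocyte genes in each library, on log axes, with colours and shapes for genotype and label number. p57KO 1 and 2 have the lowest smooth muscle sums, 5577 and 8808 CPM, and p57WT 2 has the highest, 114500 CPM.

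The genes whose profile over the 10 libraries was most like that of the 7 were found by the root mean square difference of log2 CPM after each genotype's mean was subtracted, among 19355 genes of at least 0.5 CPM. Nkx6-3 was nearest to the mean profile, at 0.95, against a median of 2.31 over all genes. Cldn10, a claudin of tight junctions, followed at 1.02, Gm38197 at 1.03 and Nkx6-2, a homeobox gene related to Nkx6-3, at 1.04. The next were Sh2d6 (1.2), Epas1 (1.23), Cebpb (1.23), Chad (1.26) and Gm20703 (1.27). Muc1, a membrane mucin, was the last of the 10 nearest at 1.27 and was the nearest gene to Pgc, at 0.92. Muc1 was at 5.33 and 6.27 CPM in p57KO 1 and 2, at 1.39 to 2.92 CPM in p57KO 3, 4 and 5, at 0 in p57WT 2 and at 2.02 to 5.10 CPM in the other p57WT libraries. Nkx6-3 was also first for Tff2 (2.33), Gkn3 (1.09) and Muc6 (1.56). After it came Rn7sk, Ccl2 and Lilr4b for Tff2 (2.46 each), and Rn7sk (1.78) and Cebpb (1.8) for Muc6. For Gkn3 these were Akr1b7 (1.54), Ctla2a (1.56) and Saa3 (1.71). Saa3 was at 221 and 1413 CPM in p57KO 1 and 2, at 0.58 to 1.74 CPM in p57KO 3, 4 and 5 and at 0.079 to 0.52 CPM in p57WT. Among the 7 themselves, Tff1 and Pgc were closest at 0.79, Tff2 and Muc6 differed by 0.97, and Atp4a lay 1.59 to 3.94 from each of the others. This measure sets amplitudes beside each other as well as order, and all profiles come from the same 10 libraries.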

How the data were processed

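RNA-seq of 10 libraries was analysed from a table of whole-number read counts per gene, not normalized, as deposited by the authors. The table also held each count divided by a size factor (a normalized signal), and the authors' comparison as log2 fold changes with standard errors, a test score and p-values, all deposited by the authors; of these, only log2 fold changes are quoted. Only genes with a mean normalized count of at least 3 were listed. Per the submitters' processing notes DESeq2 1.22.2, HTSeq 1.0, STAR 2.6.1d and Cufflinks 2.2.1 were used, beside Trim Galore and FastQC, with mm10/GRCm38, in roles that are not given; the annotation release and the strand setting are not given in the sources used here.

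Columns were assigned to libraries by their labels. Counts were filtered with filterByExpr, scaled by TMM and tested with edgeR 4.0.16 (quasi-likelihood, genotype as the only term, R 4.3.3), with Benjamini-Hochberg adjustment over all 16710 genes tested and a threshold of 0.05. The 5 p57KO libraries were fitted in the same way with the label number as the term. CPM are TMM-scaled. DESeq2 1.42.0 and limma 3.58.1 were alternatives. Counting intervals are exact Poisson or binomial 95% limits. Counts were also simulated for 16939 genes with the design of the genotype comparison. There, 98% of genes changed 2 log2 units and 35% of those changed 1 log2 unit were recovered. These shares hold for the simulated counts only. In the real libraries Muc6 differed by -2.32 between genotypes, with an SE of 1.46 and 95% limits of -5.45 to 0.82. The shares therefore do not give the chance of recovery for genes that vary between libraries as Muc6 does.

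The 7 genes and all gene lists were chosen with earlier results of these data known. Named genes are the 7, Cdkn1c and Hopx as checks, stomach list genes that were called, up to 4 genes of the smallest p in the other lists, and the genes most alike in profile. Genes called between label numbers, Esrrg, Pga5, A4gnt, Ap2a2, Sct, Gip, Pyy and Insl5 were named after their values were seen. No library pair of a genotype agreed within sampling noise.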

Additional observations from a re-analysis of the deposited data

Results flagged for a closer look

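The highest and lowest library of each genotype was set against the rest for the 7 genes, 14 groups in all. In 1 of them a library stood apart by more than the critical share of the range for 5 values, 0.710: Muc6 in p57KO 1, at 147.7 CPM, whose gap to the next p57KO library was 0.804 of the whole range. Chance alone flags about 1 group in 20, but these genes were chosen for a division of the libraries that several of them share, so the groups are not independent and the count is not read against that rate. The gap was measured in CPM, not on a log scale, and p57KO 2, at 29.3 CPM, was itself far above the 0.38 to 1.2 CPM of p57KO 3, 4 and 5.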

How the results depend on the processing

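The 6107 genes called between genotypes became 11708 (346 higher, 11362 lower) with scaling to epithelial counts and 1009 (183 higher, 826 lower) with the label number as a term. Limma voom split its calls into 3016 higher and 3378 lower, against 3226 and 2881. They were 4763 to 7141 when single libraries were left out. Without p57KO 1 and 2 there were 6870, of which 5180 were shared. The 1 stomach list gene became 0 with scaling to epithelial counts and 2 with DESeq2 or without a filter. The count was 2 without p57KO 1 and 2 (1 higher, 1 lower), and 0 to 1 when single libraries were left out. The 692 genes called between 607 and 608 became 387 with scaling to epithelial counts and 1928 with DESeq2, and 226 (without p57KO 4), 421 (without p57KO 5) and 1289 (without p57KO 2) in the range of single libraries left out; the 2 stomach list genes became 1 and stayed at 2 to 3. Signs of the genotype difference turned for Atp4a (-0.45, epithelial scaling), for Tff1 (0.61), Tff2 (0.34), Gkn3 (1.14) and Pgc (0.47) with the label number term, and for Gkn3 without p57KO 3 (0.24), p57KO 4 (0.24), p57KO 5 (0.23) or p57WT 3 (0.29), in a range from -1.12. Atp4a in 607 over 608 turned to 0.04 (voom), 0.06 (without p57KO 1) and 0.18 (without p57KO 5), in a range from -0.26. The causes were not tested. With the replicate number as a block, 5804 genes and 1 stomach list gene were called. It was A4gnt, as with voom and without p57WT 2, and not Capn8. Without p57KO 2 it was Esrrg. Same-numbered libraries correlated at -0.134 to 0.204. Of the p57KO libraries, only p57KO 1 correlated best with its own number, and p57WT 1 also shared its label number 607. Whether the others share more than a number is not given. The replicate block gave genotype differences of -5.50 for Muc6, -5.41 for Tff2, -3.75 for Gkn3, -1.98 for Tff1 and -1.58 for Pgc.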

Other observations

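The endocrine genes of the stomach were read from a list of 4. All 4 tested, Sst, Gast, Ghrl and Hdc, were higher in p57KO, with log2 differences of 11.42, 7.45, 3.61 and 3.28 (edgeR, adjusted p = 5.42e-08, 0.000178, 0.0170 and 0.0286), beside 19.3% of all genes. Hdc did not pass with voom (adjusted p = 0.137), with the replicate number as a block (0.118), without p57KO 2 (1.57, adjusted p = 0.165) or without p57WT 1, 2, 4 or 5 (0.0593 to 0.0663). Gast, which encodes gastrin of the antrum and fetal pancreas, was at 4.53 to 20.6 CPM in p57KO and at 0 to 0.131 CPM in p57WT, from at most 1 count in each p57WT library. In 607 over 608 Gast differed by 1.51 (SE 0.46, adjusted p = 0.106) and Sst by -0.12 (SE 0.47, adjusted p = 0.919). Thus p57KO 3, 4 and 5 held Gast and Sst at levels above every p57WT library, while their Muc6 and Tff2 were nearly undetected. A rise in p57KO was not particular to this list. The intestinal hormone genes Sct, Gip and Pyy were also higher, by 4.78, 4.55 and 3.33 (edgeR, adjusted p = 0.000286, 0.00631 and 0.00472). Insl5 of the distal gut list did not pass (1.71, adjusted p = 0.209). With scaling to epithelial counts 2 of the 4 were called higher, and with the label number as a term 2 of 4.

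Nkx3-2, a homeobox gene of stomach and pyloric mesenchyme, was at 0.307 to 1.65 CPM in p57KO and at 0.605 to 4.27 CPM in p57WT (log2 -1.03, SE 0.62, edgeR adjusted p = 0.207). Its highest level, 4.27 CPM, was in p57WT 2, which held the least Tff2. In 607 over 608 it differed by -0.13 (SE 0.93, adjusted p = 0.958).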
